A study of Danio rerio with 36 samples.

Results

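The vacuolar ATPase (V-ATPase) genes of zebrafish were followed through wild-type and sgsh mutant animals from the embryo to the aged brain. The members were all genes whose symbol in the deposited count tables starts with atp6v or atp6ap, in either case of letters, which gave 27 of the 32520 genes counted. They comprise 13 genes for subunits of the V1 domain, 9 for subunits of the V0 domain and 5 for accessory proteins. RNA of pooled animals was sequenced in 36 libraries, in 12 groups of 3 libraries. The wild-type and the homozygous sgshΔex5-6 fish (here sgsh, a deletion in the gene altered in mucopolysaccharidosis IIIA) were sampled as whole embryos at 24 hours post-fertilisation (hpf), larval heads at 5 days post-fertilisation (dpf), and brains at 2, 3 and 18 months. At 2 months, both genotypes were also sampled as stable transgenics, Tg(-3.5ubb:mTagBFP2-T2A-sgsh), in which the ubiquitously active ubb promoter drives wild-type sgsh together with a blue fluorescent protein. Each embryo or larval library pooled 50 animals, and each brain library pooled 3 brains. All groups are therefore bulk tissue of pooled fish, in which fewer cells of a type and less RNA per cell cannot be told apart. The methods call the 3-month replicates independent, and the labels do not say whether the pools of the other groups came from separate clutches, so the p-values measure the spread between these pools.

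The V-ATPase is a rotary proton pump. Its cytosolic V1 domain hydrolyses ATP in a ring of alternating A and B subunits, and the rotation is passed through a central stalk of D and F to the membrane-bound V0 domain, where the ring of c and b subunits carries protons past subunit a. The E and G subunits form the peripheral stalks, C and H tie V1 to V0, d caps the c ring, and e is a small membrane subunit of V0. Ap1 and Ap2 (the latter also called the prorenin receptor) are accessory proteins of the V0 domain. The pump acidifies lysosomes, endosomes and the Golgi, and in neurons it sets up the proton gradient with which synaptic vesicles take up neurotransmitter. Sgsh itself is a sulfatase of the acidic lysosome that acts on heparan sulfate. In mammals, the B1 and a4 isoforms serve proton-secreting epithelia, B2 and a1 are the isoforms of brain, and a2 is known from the Golgi and endosomes.

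Libraries held between 16200025 and 26038889 counts in all. Levels are CPM, the usual depth-scaled count relative to the library total, and levels of different genes were compared only as CPM per kb of the exon length in the tables. The read count of sgsh separated the genotypes at 5 dpf and at 2, 3 and 18 months, with all sgsh libraries the lower, from 126 to 141 against 230 to 278 at 5 dpf and from 45 to 58 against 92 to 107 at 3 months. At 24 hpf the ranges overlapped (167 to 206 against 181 to 223), and so did those of the transgenic brains, with 1834 to 2755 counts (sgsh) and 2496 to 3585 counts (wild type), so there this count is no check of the genotype labels. A gene was called when its adjusted p was under 0.05 (edgeR quasi-likelihood test, Benjamini-Hochberg adjustment over all genes tested in that comparison). With 3 libraries against 3, an exact two-sided permutation test of 1 value cannot give a p under 0.1.

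Of the 27 genes, 26 were measured in every group. The exception was ATP6V1C2, an isoform of the C subunit, with 0 to 3 counts in each of the 30 libraries from embryos and brains and 6 to 16 counts in the 6 head libraries at 5 dpf. It passed the filter on low counts in the 5 dpf comparison and in that of the 2-month brain with the 5 dpf head, and in no other. The highest levels were those of subunits of which the enzyme holds several copies. In the wild-type brain at 3 months, the c subunit (atp6v0ca and atp6v0cb together) reached 730 ± 13.9 CPM per kb (SD, n = 3). It was followed by G at 309 ± 16.1, E at 263 ± 0.57 and B at 255 ± 2.32, with A at 212 ± 4.28. These 5 were the 5 highest of the 15 subunit and accessory groups in 34 of the 36 libraries, embryo, larva and brain included. The 2 exceptions were wild-type brains at 18 months, replicates 2 and 3, in which the summed Ap1 genes (199 and 203 CPM per kb) stood above subunit A (198 and 192).

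Below these, the order in the 3-month wild-type brain was Ap1 (201 ± 0.67 CPM per kb), a (153 ± 2.02), C (153 ± 1.80), d (140 ± 1.58), D (127 ± 2.13), Ap2 (102 ± 2.08), b (101 ± 2.69), F (99.0 ± 4.12) and H (91.8 ± 0.80). Subunits a and C did not differ beyond the spread of the libraries, nor did Ap2, b and F. Subunit e stood far lowest, with atp6v0e1 at 0.51 ± 0.080 CPM per kb. That value is uncertain, because atp6v0e1 (chromosome 14, 52565660 to 52576034, GRCz11) shares 482 exon bases on the same strand with rpl26, which had 0 to 7 counts, and 470 bases on the opposite strand with another gene, ENSDARG00000098660. By default featureCounts gives a read that overlaps 2 genes to neither. For each subunit the gene with the highest level per kb in the 3-month wild-type brain was atp6v0cb (449 CPM per kb), atp6v1g1 (309), atp6v1e1b (234), atp6v1b2 (185), atp6v0d1 (140), atp6ap1a (140), atp6v1aa (139), atp6v0a1b (128), atp6v1d (127), atp6v1c1a (104), atp6ap2 (102), atp6v0b (101), atp6v1f (99.0) and atp6v1h (91.8).

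**Figure D1:**
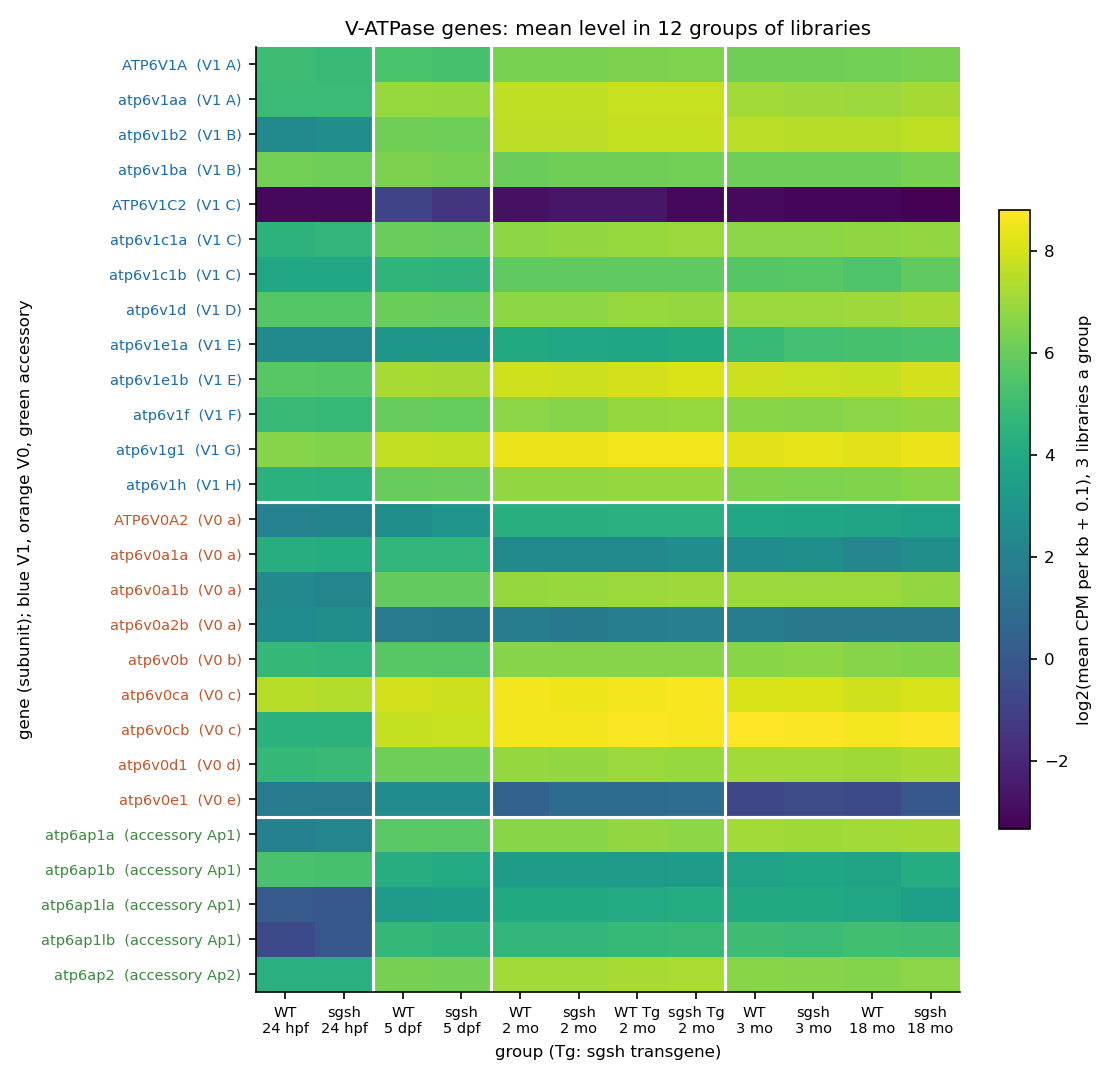
Mean level of the 27 genes (rows, ordered by V1, V0 and accessory proteins) in the 12 groups (columns), as log2 of CPM per kb plus 0.1, mean of 3 libraries. The rows of atp6v0ca, atp6v0cb and atp6v1g1 are the brightest in brain, while the row of ATP6V1C2 is dark throughout and rises only in the 5 dpf heads, where it had 6 to 16 counts.

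The summed level of the 27 genes was lowest in the embryo and highest in the brain. It was 1521 to 1563 CPM in the wild-type embryos, 3596 to 3686 CPM in the wild-type heads and 5752 to 5869 CPM in the wild-type brains at 3 months. The 24 hpf, 3-month and 18-month libraries share a table, while the 5 dpf and 2-month libraries were counted with a stated strand and mapping-quality setting, so stages were tested only within each kind of table. In both tests stage and tissue differ together, since whole embryos or heads were set against dissected brains.

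Between the wild-type 24 hpf embryo and the wild-type 3-month brain, 21 of 26 members tested were called higher in brain and 5 lower (edgeR). Over all genes, 45.0% were called higher and 45.8% lower (90.8% in all). The median log2 fold change of the members was 1.94, against −0.02 over all 21531 genes tested. The largest rises were those of single paralogues. The accessory gene atp6ap1lb went from 1.54, 1.55 and 1.69 CPM in the embryo libraries to 88.1, 91.1 and 94.1 CPM in brain, which is 5.76 on the log2 scale (standard error, SE, 0.0718). The related atp6ap1a went from 13.8, 13.9 and 14.4 CPM to 499, 498 and 502 CPM, which is 5.08 on the log2 scale (SE 0.0440). The libraries of embryo and brain lay far apart for both genes.

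Among the V1 genes, 11 of 12 tested were higher in brain. The catalytic-ring gene atp6v1b2 had 12.6, 12.9 and 12.7 CPM in embryos and 442, 444 and 440 CPM in 3-month brains, which is 5.05 on the log2 scale (SE 0.0430, adjusted p = 2.1e-18). Its paralogue atp6v1ba moved slightly the other way, from 193, 190 and 194 CPM to 184, 175 and 174 CPM (log2 fold change −0.19, SE 0.0367, adjusted p = 0.000281 from edgeR). In the embryo atp6v1ba thus made up 93.4 ± 0.13% of the B-subunit level per kb (SD, n = 3), and in the 3-month brain 27.3 ± 0.60%. The other V1 genes rose by log2 values between 1.1 (ATP6V1A) and 2.39 (atp6v1e1a), a much narrower range. In subunit A, the share of ATP6V1A fell from 51.5 ± 0.62% to 34.3 ± 0.55%, with atp6v1aa as the rest.

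Among the V0 genes, 6 of 9 were called higher in brain and 3 lower, and the exchange of paralogues was again within subunits. Of the a subunits, which hold the proton half-channels, atp6v0a1b rose from 15.5, 14.6 and 15.6 CPM to 389, 382 and 389 CPM (log2 fold change 4.59, SE 0.0455), and ATP6V0A2 by 1.84. The other a-subunit genes fell, atp6v0a1a by 1.80 on the log2 scale (from 65.5, 69.6 and 66.2 CPM to 21.4, 18.4 and 20.7 CPM) and atp6v0a2b by 0.91. The proteolipid gene atp6v0cb, which codes for the c ring, rose from 34.4, 37.7 and 39.1 CPM to 804, 770 and 783 CPM (log2 fold change 4.34), while atp6v0ca, already at 296 to 302 CPM in the embryo, rose by 0.56. The share of atp6v0cb in the c-subunit level went from 10.4 ± 0.70% to 61.4 ± 0.32%. These paralogues are close relatives, and how reads that match both were divided is not visible in the counts. The lone e-subunit gene, atp6v0e1, was lower in brain (log2 fold change −2.69, SE 0.119), with the overlap named above.

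The accessory genes split likewise. Besides atp6ap1lb and atp6ap1a, atp6ap1la rose by 3.97 and atp6ap2 by 2.24 on the log2 scale, whereas atp6ap1b was lower, at 30.1, 27.2 and 30.6 CPM in brain against 92.8, 91.9 and 94.6 CPM in the embryo (log2 fold change −1.74, SE 0.0508). Within the Ap1 group the share of atp6ap1b per kb went from 87.9 ± 0.073% to 6.21 ± 0.37%, and that of atp6ap1a from 8.69 ± 0.094% to 69.4 ± 0.048%. All 26 calls of this comparison held in each of the 13 alternative fits.

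**Figure D2:**
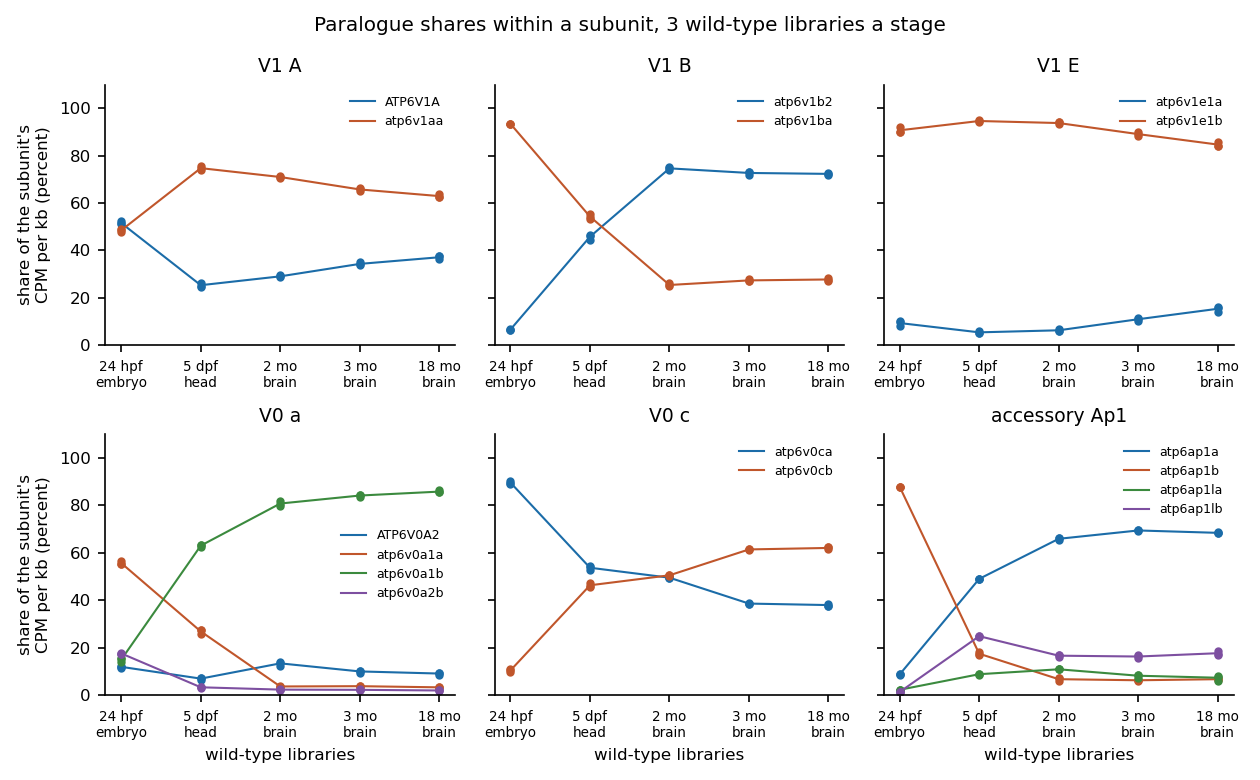
Share of each paralogue in the level of its subunit (percent of CPM per kb, y axis) at 5 wild-type stages (x axis); points are the 3 libraries of a stage and lines join the means. In A, B, a, c and Ap1 the leading gene of the embryo (ATP6V1A, slightly ahead at 51.5%, then atp6v1ba, atp6v0a1a, atp6v0ca and atp6ap1b) is not that of the 3-month brain. In E, atp6v1e1b leads at every stage.

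The wild-type 2-month brain was compared with the wild-type 5 dpf head in the same way. Here 20 of 27 members were called higher in brain and 6 lower (edgeR), against 38.2% and 41.2% of all genes (79.4% in all). The median log2 fold change was 0.64 over the members and −0.02 over all 21579 genes. The rises were led by ATP6V0A2, with 22.5, 24.4 and 24.7 CPM in the heads and 74.1, 68.2 and 74.0 CPM in brain (log2 fold change 1.49, SE 0.0573). Next came atp6v1b2 (log2 fold change 1.32), the C-subunit gene atp6v1c1b (1.17), atp6v0a1b (0.90), ATP6V1A (0.89), atp6v1e1a (0.85), atp6v0b (0.84), atp6ap1a (0.82), atp6v0cb (0.75) and atp6v1h (0.72). The genes that fell were atp6v0a1a (−2.36, from 93.7, 84.8 and 94.2 CPM to 19.4, 18.9 and 18.7 CPM), atp6v0e1 (−2.21), atp6ap1b (−1.0), atp6v1ba (−0.48) and atp6ap1lb (−0.19). The count of 6 includes ATP6V1C2, which had 12, 16 and 15 counts in the heads against 0, 3 and 1 in the brains. It passed the filter on low counts only through the heads, where it was higher, so its call is no result. The call of atp6ap1lb was the weakest: its libraries overlapped, at 73.9, 77.1 and 73.3 CPM in heads and 70.0, 74.1 and 67.0 CPM in brains, and it was lost when scaling used the library size alone (adjusted p = 0.135).

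In B, a, c and Ap1 the embryo's leading paralogue had an intermediate share in the head. At 5 dpf, atp6v1ba held 54.2 ± 1.16% of the B subunit, atp6v0a1a 26.8 ± 0.86% of the a subunit, atp6v0ca 53.7 ± 0.83% of the c subunit and atp6ap1b 17.4 ± 0.57% of Ap1. Each share lay between those of the embryo and the 2-month brain, where they were 25.4 ± 0.63%, 3.59 ± 0.14%, 49.5 ± 0.20% and 6.67 ± 0.81%. Subunit A changed its leading gene too, but without this order. There ATP6V1A, slightly ahead in the embryo, held 51.5%, 25.3% and 29.0% in the embryo, the head and the 2-month brain, and atp6v1aa 48.5%, 74.7% and 71.0%. Several other shares did not lie between either: at the same stages atp6v1c1b held 38.9%, 26.7% and 35.3% of C, atp6v1e1b 90.7%, 94.6% and 93.7% of E, atp6ap1lb 1.26%, 24.8% and 16.6% of Ap1, and ATP6V0A2 11.9%, 6.90% and 13.3% of a. The levels of the stages come from tables counted with different settings.

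**Figure D3:**
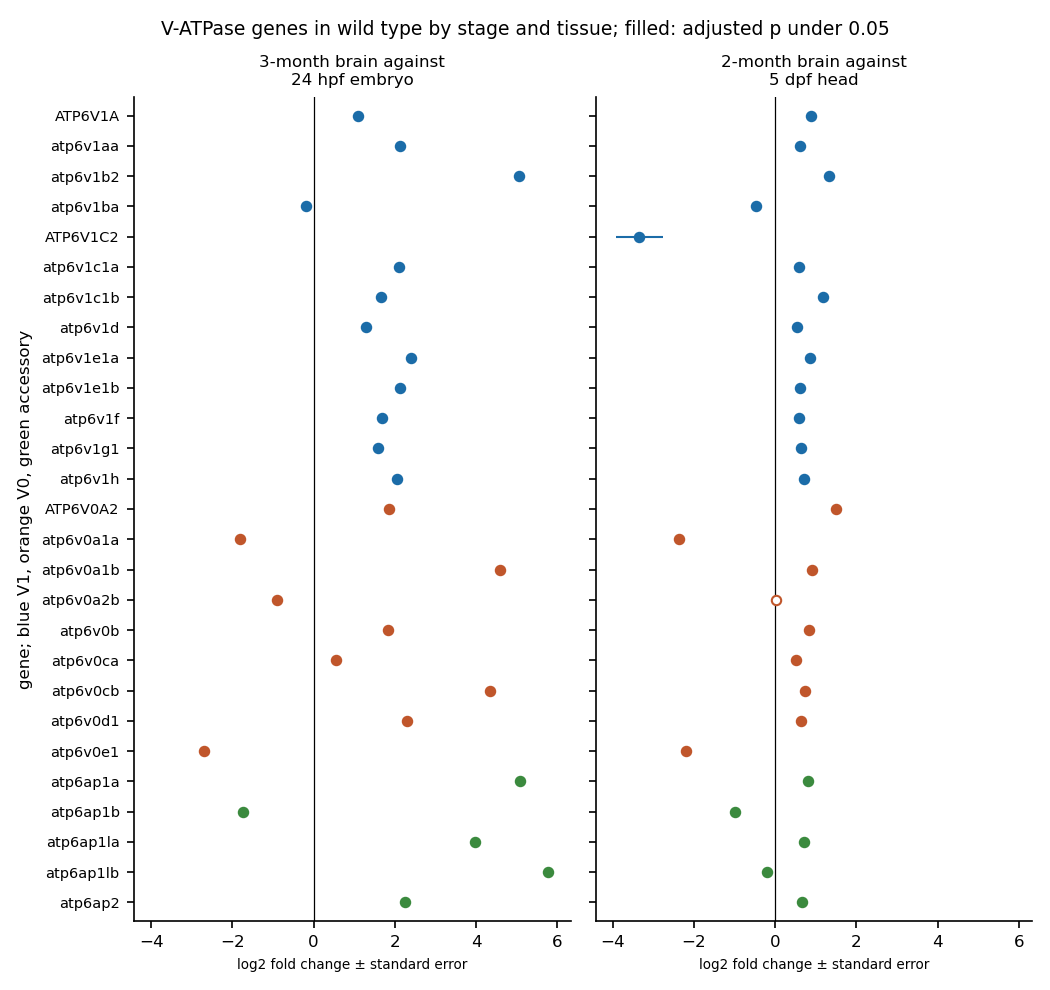
Log2 fold change with SE (x axis) of each member (y axis) in wild type, 3-month brain against 24 hpf embryo (left) and 2-month brain against 5 dpf head (right), 3 libraries a group; filled points were called. The points of atp6v0a1a, atp6v0e1, atp6ap1b and atp6v1ba lie left of 0 in both panels, and the right-hand value of ATP6V1C2 rests on 0 to 3 counts a library in brain.

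Markers of other cell types moved with both comparisons. The 9 neuron markers found were all called higher in brain in each, with a summed level of 573 to 614 CPM in wild-type embryos and 8524 to 8768 CPM in 3-month wild-type brains. The muscle markers were all called lower (8 of 8 in both), at 7440 to 8371 CPM in embryos and 15.8 to 38.6 CPM in brain. Markers of skin ionocytes, proton-secreting cells included, were called lower in 10 of 11 and 9 of 10, and higher in 1 each. Their median log2 fold changes were −4.09 and −7.86. The summed level of this list did not follow most of its members and moved little. It was 588 to 594 CPM in wild-type embryos and 549 to 591 CPM in 3-month brains. In the heads it was 768 to 797 CPM, beside 687 to 695 CPM in the 2-month brains. Lens and photoreceptor (5 of 7 and 9 of 9), pigment (8 of 8 and 7 of 8) and skin and cartilage genes (5 of 7 and 6 of 7) were mostly lower too, and oligodendrocyte genes mostly higher (5 of 6 and 6 of 6). Radial glia markers were higher in 4 and lower in 2 of 6, then higher in 5 of 6. Microglia markers were higher in 8 and lower in 2 of 10 against the embryo, though their summed level was 250 to 286 CPM in brain and 3083 to 3173 CPM in the embryo. Against the head they were higher in 5 and lower in 4. Blood markers were higher in 2 and lower in 7 of 9, then higher in 4 and lower in 4. Pituitary markers were higher in 1 and lower in 1 of 2, then lower in 5 of 5. The part of tissue makeup in the V-ATPase differences was not tested.

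Genes that build, regulate or use the pump were tested in the same comparisons. Of the list of assembly factors, the RAVE complex that joins V1 to V0, and TLDc proteins, 9 of 10 tested were higher in the 3-month brain than in the embryo (median log2 fold change 2.34) and none lower. Against the 5 dpf head 7 were higher and 1 lower (median 0.34). The vesicular transmitter transporters, which use the pump's proton gradient, were higher in 8 of 9 and lower in 1 against the embryo (median 3.62), and higher in 5 and lower in 2 of 9 against the head (median 0.49). Lysosomal and endosomal ion channels and exchangers were higher in 8 and lower in 4 of 13, then higher in 9 and lower in 2. The lists of Ragulator, Rag GTPase and mTORC1 genes, the nutrient-sensing machinery on the lysosome (8 higher and 5 lower of 16, then 8 and 3), of lysosomal membrane glycoproteins (2 and 2 of 5, then 3 and 2) and of MiT/TFE factors, the transcription factors of lysosomal genes (2 and 4 of 6, then 1 and 4), moved in both directions. These lists hold no member of the V-ATPase. Of all genes, 45.0% were called higher and 45.8% lower in the brain against the embryo, and 38.2% higher and 41.2% lower against the head.

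The sgsh genotype was compared with wild type at each stage, which asks whether loss of the sulfatase goes with a change of the pump's genes. At 24 hpf, 5 of 26 members were called, 3 higher and 2 lower in sgsh embryos (edgeR). That is a share of 19.2%, while 21.7% of all genes were called, 10.8% higher and 10.9% lower. The median log2 fold change of the members was −0.02. In the embryo the A-subunit gene ATP6V1A had 72.2, 76.6 and 72.6 CPM in sgsh and 81.4, 81.5 and 85.0 CPM in wild type, which is −0.16 on the log2 scale (SE 0.0411, adjusted p = 0.00658). Every sgsh library lay below every wild-type library. It was the one call kept by DESeq2 and by each fit that left out a library.

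The other 4 calls at 24 hpf were slight or rested on low levels. The accessory gene atp6ap1lb had 2.58, 1.81 and 2.86 CPM in sgsh and 1.54, 1.55 and 1.69 CPM in wild type (log2 fold change 0.60, SE 0.187). Its relative atp6ap1a had 15.6, 16.7 and 15.8 against 13.8, 13.9 and 14.4 CPM (0.20, SE 0.0667), the C-subunit gene atp6v1c1a 46.3, 47.5 and 48.1 against 42.2, 42.7 and 44.4 CPM (0.14, SE 0.0452). The B-subunit gene atp6v1ba was lower, at 178, 181 and 180 against 193, 190 and 194 CPM (−0.10, SE 0.0341). Their adjusted p lay between 0.0239 and 0.0404 and their groups did not overlap. DESeq2, which called 13.6% of all genes, called none of these 4, and the number of members called was 1 without sgsh replicate 3, 1 without wild-type replicate 1, 1 without wild-type replicate 2 and 3 without sgsh replicate 1. In the same embryos 8 of 8 muscle markers were called higher in sgsh, with summed levels of 9656 to 10397 CPM against 7440 to 8371 CPM. So were 5 of 9 neuron markers, whose summed levels overlapped (599 to 629 against 573 to 614 CPM). Of the lens and photoreceptor genes, 4 of 7 were called higher and none lower (173 to 222 against 140 to 145 CPM summed). The part of these in the V-ATPase values was not tested.

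At 5 dpf 1 of 27 members was called, a share of 3.70%, against 14.4% of all genes (5.71% higher and 8.67% lower). It was ATP6V0A2, an a-subunit gene, with 29.6, 27.2 and 28.7 CPM in sgsh heads and 22.5, 24.4 and 24.7 CPM in wild-type heads. The groups did not overlap, and the log2 difference was 0.28 (SE 0.0602, adjusted p = 0.0075), which stayed past the threshold in all 13 alternatives. Over all 27 members the median log2 fold change was near 0, with 13 above 0. Microglia markers were lower in these heads (5 of 10 called, median log2 fold change −0.47). Skin and cartilage genes were higher in 4 and lower in 1 of 7, with summed levels of 14220 to 15385 against 11861 to 12737 CPM. Lens and photoreceptor genes were higher in 1 and lower in 3 of 9. The part of these in the V-ATPase values was not tested. At 24 hpf ATP6V0A2 had 14.8, 14.4 and 17.9 CPM in sgsh and 14.6, 14.2 and 15 CPM in wild type, which overlapped and was not called. Nor was it called in the brain at any age.

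At 2 months no member was called in the brain, with 0.841% of all genes called, and 2 of 26 had an unadjusted p under 0.05 (11.3% of all genes did). Those were atp6v0e1, with 7.83, 9.26 and 8.89 CPM in sgsh against 7.10, 5.29 and 6.27 CPM in wild type (log2 fold change 0.47, adjusted p = 0.118, edgeR), and atp6v0a2b (−0.20, adjusted p = 0.394). The third smallest p was that of atp6v1c1a (0.11, adjusted p = 0.479). DESeq2 called none either. Between transgenic sgsh and transgenic wild-type brains, no member was called by edgeR or DESeq2 and none had an unadjusted p under 0.05 (6.34% of all genes did), with 0.0304% of all genes called. The members with the smallest p were atp6v1e1a (0.17), atp6v0a1a (0.14) and atp6ap1a (−0.07), with adjusted p between 0.796 and 0.888.

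At 3 months 1 of 26 members was called, 3.85%, beside 2.89% of all genes (2.01% higher and 0.878% lower). It was the minor E-subunit gene atp6v1e1a, with 65.2, 65.2 and 71.6 CPM in sgsh brains and 49.8, 54.5 and 57.4 CPM in wild-type brains. The groups did not overlap, and the log2 difference was 0.35 (SE 0.0671, adjusted p = 0.0256). Without sgsh replicate 3, wild-type replicate 1 or wild-type replicate 2 the call was lost, with an adjusted p of up to 0.111. The major E gene atp6v1e1b was not called, at 299, 287 and 295 against 315, 310 and 310 CPM (log2 fold change −0.06), and atp6v1e1a made up 14.0 ± 0.65% of the subunit in sgsh and 10.9 ± 0.77% in wild type (SD, n = 3). At 2 months the atp6v1e1a values were 28.1, 30.1 and 29.4 against 32.9, 28.5 and 29.8 CPM, with no call. Pigment genes were higher in the 3-month sgsh brains (4 of 6 called, 102 to 138 against 10.5 to 14.9 CPM), oligodendrocyte genes lower (2 of 6, 3430 to 3549 against 4041 to 4310 CPM), and blood genes lower (2 of 5).

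At 18 months 3 of 26 members were called, all higher in sgsh brains, which is 11.5%, beside 6.72% of all genes, 4.52% called higher and 2.20% lower. The accessory gene atp6ap1b had 38.5, 44.7 and 44.5 CPM in sgsh and 33.2, 30.0 and 31.4 CPM in wild type (log2 fold change 0.47, SE 0.0887, adjusted p = 0.0241). The C-subunit gene atp6v1c1b had 119, 96.5 and 113 against 93.2, 82.3 and 79.9 CPM (0.40, SE 0.0890, adjusted p = 0.0384). The B-subunit gene atp6v1ba had 217, 205 and 213 against 184, 175 and 170 CPM (0.31, SE 0.0537, adjusted p = 0.0199). In each of the 3 genes every sgsh library lay above every wild-type library.

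The other members did not pass the threshold. In 21 of 26 members the log2 fold change was above 0, with a median of 0.18 against 0.00 over all genes. An unadjusted p under 0.05 (edgeR) was found for 16, beside 28.8% of all genes. All members were measured in the same libraries, so these signs and p-values are not independent of each other. All sgsh libraries lay above all wild-type libraries for 8 members and below for 1, beside 15.3% and 18.6% of all genes. The same counts were made in the earlier genotype comparisons without the transgene. They were 4 above and 7 below at 24 hpf, 2 and 5 at 5 dpf, 4 and 1 at 2 months, and 2 and 6 at 3 months. These counts use CPM without TMM factors, and the shares over all genes are not given for the earlier ones. The earlier counts are therefore no result by themselves. The median log2 fold changes of the members, which use TMM factors, ran from −0.02 to 0.01 at those stages. The median was 0.20 over the V1 genes, 0.15 over the V0 genes and 0.10 over the accessory genes. The summed level of the 27 genes was 6077, 5866 and 6221 CPM in sgsh and 5824, 5449 and 5458 CPM in wild type. The groups did not overlap, but wild-type replicate 1 lay nearer to the lowest sgsh library than to the other wild-type libraries. The summed levels did not overlap at 24 hpf and 5 dpf either, but there sgsh was the lower group. They were 1465 to 1517 CPM in sgsh against 1521 to 1563 CPM in wild type at 24 hpf. At 5 dpf they were 3527 to 3565 against 3596 to 3686 CPM, with TMM-scaled means of 3492 and 3498 CPM. For the fits without a library, the shares of all genes called are not given. The count of calls turned on single libraries and on the fit. It was 0 without sgsh replicate 2, without wild-type replicate 2 or without wild-type replicate 3, 1 (atp6v1ba) without sgsh replicate 3 or without wild-type replicate 1, and 6 without sgsh replicate 1. DESeq2 called 6, all higher, beside 10.5% of all genes in either direction, and the joint fit with the 3-month libraries 11, all higher, beside 18.0% of all genes in either direction. Besides the 3 genes above, the joint fit called atp6v0a1a, atp6v0ca, atp6v0d1, ATP6V1A, atp6v1aa, atp6v1d, atp6v1e1b and atp6v1g1. Microglia markers were higher in the same brains (2 of 10 called, 356 to 416 against 225 to 252 CPM summed), as were pigment genes (3 of 6, 86.1 to 125 against 9.68 to 13.0 CPM) and radial glia markers (1 of 6, 5820 to 5876 against 5052 to 5426 CPM, median log2 fold change 0.19). Their part in the V-ATPase values was not tested.

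**Figure D4:**
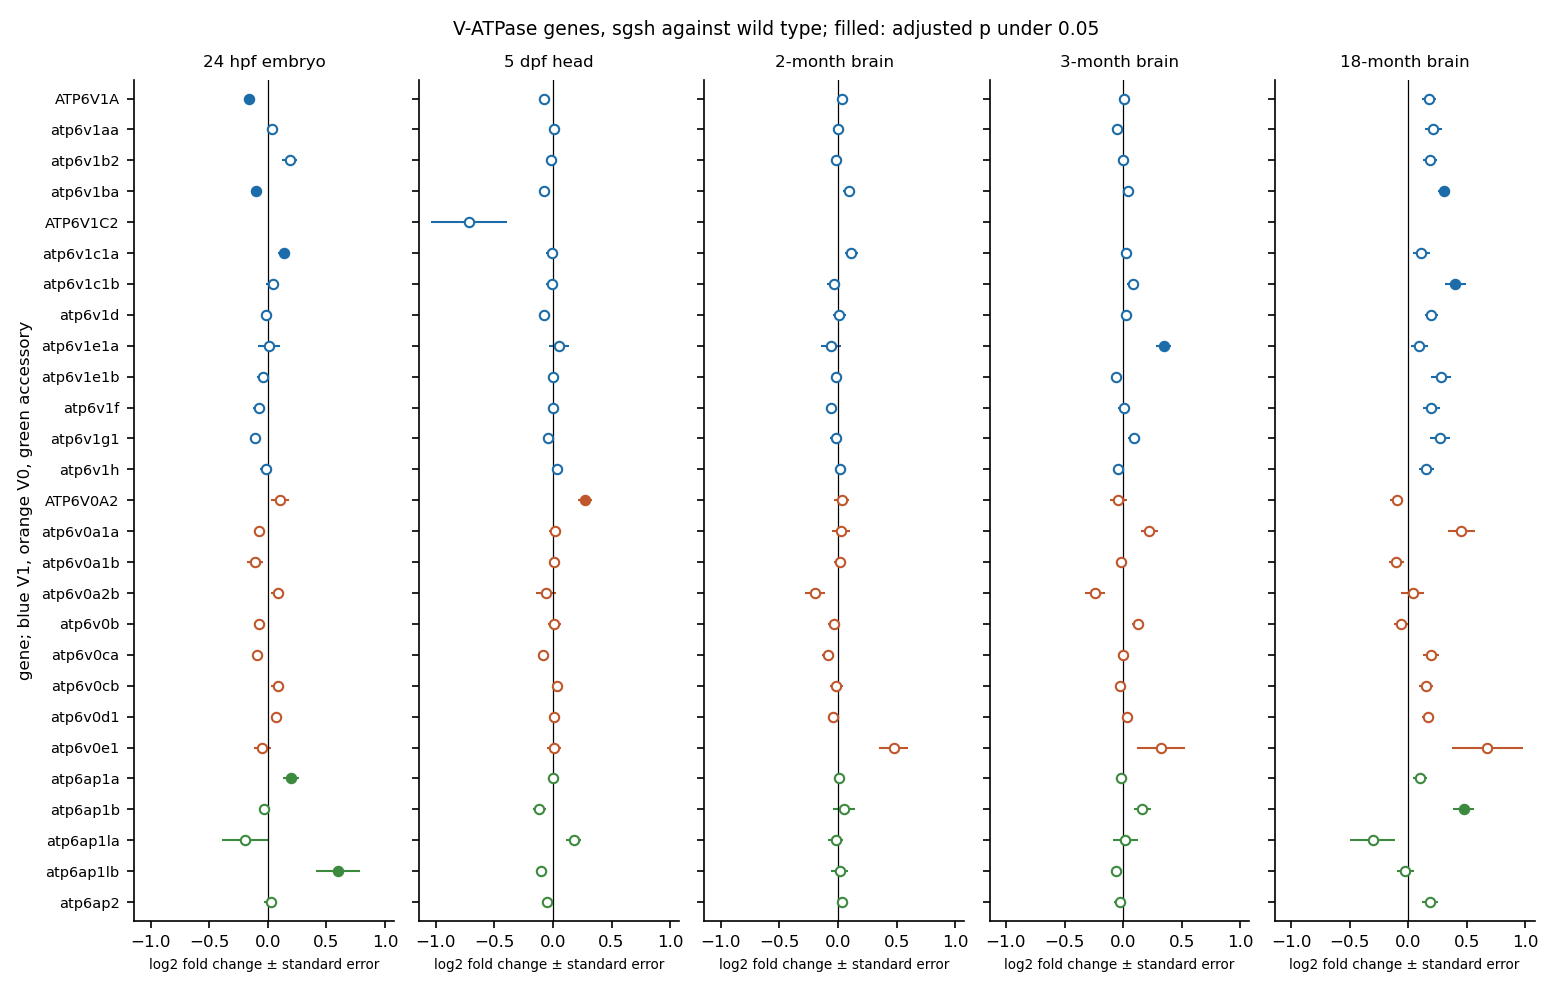
Log2 fold change of sgsh against wild type with SE (x axis) for each member (y axis) in the 5 comparisons without the transgene, 3 libraries a group; filled points were called. The points of the first 4 panels scatter about 0, with medians from −0.02 to 0.01, while those of the 18-month brain lie mostly to the right, with a median of 0.18.

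With the sgsh transgene, some members were higher in the 2-month brain of either genotype and none were called lower. Within sgsh fish 7 of 26 members were called, all higher with the transgene (26.9%), beside 8.85% of all genes called higher and 9.51% lower (18.4% in all). Within wild-type fish 8 of 26 were called, all higher (30.8%), beside 6.79% higher and 8.45% lower (15.2% in all). The median log2 fold change of the members was 0.12 in sgsh and 0.11 in wild type, against 0.00 and −0.00 over all genes. In sgsh the transgenic libraries all lay above the others for 15 members and below for none, where 15.2% and 17.7% of all genes were so placed, and in wild type for 14 and 1, where 17.8% and 19.6% were. These comparisons share no library, but all 12 libraries gave 1 estimate of the spread. Without the transgene the summed level was 6084, 6086 and 5741 CPM in sgsh and 5907, 6005 and 6031 CPM in wild type. With it the level was 6378, 6490 and 6606 CPM in sgsh and 6250, 6593 and 6441 CPM in wild type, so that the groups did not overlap in either genotype.

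In the V1 domain the stalk gene atp6v1f, which codes for subunit F, was called in both genotypes. It had 94.4, 90.9 and 87.8 CPM in sgsh and 115, 113 and 116 CPM in transgenic sgsh brains, which is 0.34 on the log2 scale (SE 0.0431, adjusted p = 0.000179). In wild type it had 95.9, 92.7 and 95.7 CPM without and 111, 111 and 109 CPM with the transgene, which is 0.23 on the log2 scale (SE 0.0430, adjusted p = 0.0034). This call held in all 20 alternatives in both genotypes. The A-subunit gene atp6v1aa had 521, 527 and 509 against 554, 612 and 591 CPM in sgsh (0.18, adjusted p = 0.00728) and 512, 527 and 516 against 569, 572 and 589 CPM in wild type (0.16, adjusted p = 0.0196). The B-subunit gene atp6v1b2 rose by 0.14 in both, with adjusted p of 0.0251 and 0.0331. The E-subunit gene atp6v1e1b was called in sgsh (0.21, adjusted p = 0.00496). The C and D genes atp6v1c1a (0.22, adjusted p = 0.0152) and atp6v1d (0.20, adjusted p = 0.0222) were called in wild type.

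In the V0 domain the calls differed between the genotypes. In sgsh they were atp6v0a2b, with 13.2, 13.4 and 11.2 CPM without and 15.8, 16.3 and 16.2 CPM with the transgene (0.37, SE 0.0847, adjusted p = 0.00856), and atp6v0ca, with 616, 608 and 545 against 655, 647 and 700 CPM (0.19, adjusted p = 0.0249). In wild type the call was atp6v0e1, with 7.10, 5.29 and 6.27 against 7.55, 9.60 and 8.64 CPM (0.47, SE 0.126, adjusted p = 0.0232). Of the accessory genes, atp6ap2 was called in sgsh (0.12, adjusted p = 0.0455) and in wild type (0.13, adjusted p = 0.0471), near the threshold in both (5 and 7 of 20 alternatives kept the call), and atp6ap1a in wild type (0.18, adjusted p = 0.0195). A call in 1 genotype and not in the other is no difference between them. The difference itself, the interaction of genotype and transgene, was called for no member by edgeR or DESeq2, with 0.127% of all genes called. In that test 1 of 26 members had an unadjusted p under 0.05 (9.74% of all genes did), atp6v0ca (difference of log2 fold changes 0.16, adjusted p = 0.509), followed by atp6v0e1 (−0.35, adjusted p = 0.548) and atp6v0a2b (0.24, adjusted p = 0.55).

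For the refits that follow, the shares of all genes called are not given. The number of calls depended on single libraries. Within sgsh it was 4 without transgenic replicate 3 and also 4 in a fit of the 6 libraries alone (atp6v0a2b, atp6v1aa, atp6v1e1b and atp6v1f in both). Within wild type it was 3 without replicate 1 or without replicate 3 of the fish without the transgene, 1 (atp6v1f) without transgenic replicate 2 and 2 without transgenic replicate 3. Oligodendrocyte markers were higher with the transgene in sgsh brains (4 of 6 called, 5670 to 6496 against 4086 to 4872 CPM summed) and were not called in wild type (0 of 6, 5565 to 6101 against 5033 to 5421 CPM). Blood markers were lower in both (4 of 6 and 2 of 6), and radial glia markers lower in 3 of 6 in wild type and 2 of 6 in sgsh. Of 9 neuron markers, 3 were called higher and 1 lower in sgsh (median log2 fold change 0.00). In wild type 2 of the 9 were higher and 1 lower (median 0.02). In sgsh, microglia markers were higher (3 of 10 called, 482 to 653 against 387 to 456 CPM) and pigment genes lower in 4 and higher in 1 of 7 (15.9 to 30.7 against 54.2 to 74.0 CPM). In wild type, 1 of 10 microglia markers was lower, with a summed level of 443 to 511 against 397 to 408 CPM, and 1 of 7 pigment genes was higher and 1 lower. Muscle markers ranged up to 662 CPM in transgenic sgsh and 617 CPM in transgenic wild-type libraries, beside at most 68.4 CPM in the brains without the transgene. Their part in the V-ATPase values was not tested.

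**Figure D5:**
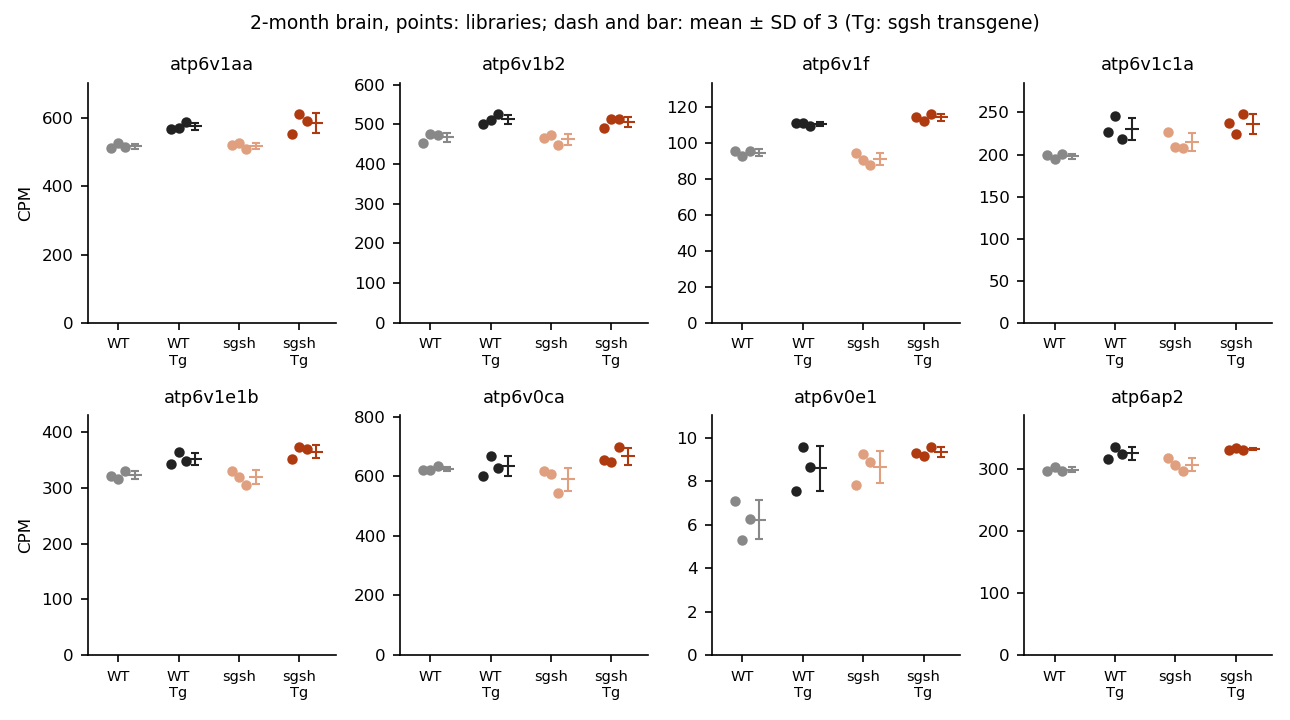
CPM (y axis, from 0) of 8 members called with the transgene in at least 1 genotype, in the 4 groups of 2-month brains (x axis); points are libraries, and the dash and bar beside them are the mean and SD of 3. For atp6v1f the transgenic libraries (109 to 116 CPM) all lie above those without the transgene (87.8 to 95.9 CPM).

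Ageing was compared between the 3-month and 18-month brains of each genotype. In wild type 3 of 26 members were called, 1 higher and 2 lower at 18 months (11.5%), beside 20.8% of all genes, 9.14% higher and 11.7% lower. The E-subunit gene atp6v1e1a rose from 49.8, 54.5 and 57.4 CPM to 71.3, 73.0 and 72.4 CPM (log2 fold change 0.44, SE 0.0721, adjusted p = 0.00122). It was past the threshold in all 19 alternatives. The same 3-month wild-type libraries are the lower group of the genotype call of atp6v1e1a at 3 months, so these calls are not independent. The c-subunit genes atp6v0ca (463, 450 and 464 against 426, 386 and 387 CPM, log2 fold change −0.19, adjusted p = 0.0372) and atp6v0cb (804, 770 and 783 against 733, 685 and 688 CPM, −0.15, adjusted p = 0.0446) fell together. Only atp6v1e1a was called when any 1 of the 3-month wild-type libraries, or the 18-month wild-type replicate 3, was left out, and likewise when scaling left out the 10 most abundant genes.

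In sgsh brains 8 of 26 members were called with age, 6 higher and 2 lower (30.8%), beside 19.5% of all genes, 9.87% called higher and 9.60% lower. The V1 genes atp6v1f (0.26), atp6v1ba (0.25), atp6v1d (0.21), ATP6V1A (0.20) and atp6v1h (0.20) rose on the log2 scale, with adjusted p between 0.00267 and 0.0201. Of the called members the accessory gene atp6ap1b rose most, from 30.4, 32.3 and 34.1 CPM to 38.5, 44.7 and 44.5 CPM (0.41, SE 0.0826, adjusted p = 0.00488). The V0 genes atp6v0b (216, 223 and 195 against 184, 179 and 165 CPM, log2 fold change −0.25, adjusted p = 0.008) and ATP6V0A2 (57.2, 53.1 and 47.7 against 45.3, 43.8 and 42.3 CPM, −0.25, adjusted p = 0.0193) fell. The count was 14 without the 18-month sgsh replicate 1 and 5 without the 3-month sgsh replicate 2. The shares of all genes called in these refits are not given, so whether calls over all genes moved alike is not known. Microglia markers were higher at 18 months in sgsh (9 of 10 called) and mixed in wild type (2 higher and 1 lower of 10), and oligodendrocyte markers were lower in both (4 of 6).

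Whether the genotype effect changed between 3 and 18 months was tested as an interaction. No member was called by edgeR, with 0.126% of all genes called. DESeq2 called 1, atp6v1ba, whose difference of log2 fold changes was 0.25 (SE 0.0637, edgeR adjusted p = 0.148). The share of all genes that DESeq2 called in this test is not given, so its call is no result by itself. In edgeR, atp6v1ba was followed by atp6v1e1b (0.33, adjusted p = 0.191) and atp6v1aa (0.25, adjusted p = 0.221). An unadjusted p under 0.05 was found for 14 of 26 members, beside 15.3% of all genes. The difference was above 0 for 21 of 26, with a median of 0.17 against 0.00 over all genes. The members were measured in the same libraries, so their signs are not independent of each other. The age and genotype comparisons of the adult brain use the same 12 libraries, so these values are no independent sign of the 18-month difference.

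One member lies near the mutated gene. The gene atp6ap2 is on chromosome 22 from 11123487 to 11137268 (GRCz11, minus strand), 383 kb from the start of sgsh (11520249 to 11532760, plus strand). It was not called by genotype at any stage, with 42.6, 45.6 and 47.8 CPM in sgsh embryos against 43.3, 42.8 and 47.9 CPM in wild type, and 318, 307 and 297 against 297, 303 and 296 CPM in the 2-month brains. At 18 months it had 220, 230 and 238 CPM in sgsh and 220, 194 and 207 CPM in wild type (log2 fold change 0.19, adjusted p = 0.124), the highest of its genotype values. No other member lies on chromosome 22. The 27 genes are spread over 16 chromosomes. Paralogues of a subunit can lie far apart, as atp6v1aa on chromosome 5 (24245682 to 24259992) and ATP6V1A on chromosome 24 (21154120 to 21172122), while 3 of the Ap1 genes, atp6ap1a, atp6ap1b and atp6ap1lb, share chromosome 23.

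Genes of the pathway around the pump were called with genotype in part. Over all genes, 21.7% were called at 24 hpf, 14.4% at 5 dpf, 2.89% at 3 months and 6.72% at 18 months. Some list counts lay below these shares and others above them. At 24 hpf, where 10.9% of all genes were called lower, the MiT/TFE factors were lower in sgsh in 3 of 6, tfec (−0.45), tfeb (−0.37) and mitfa (−0.36), and at 5 dpf, where 8.67% of all genes were, in 2 of 5, tfec (−0.65) and tfeb (−0.51). None of this list was called in the sgsh brain at 2, 3 or 18 months, nor by the transgene in wild type, while tfe3b (0.63) was higher with the transgene in sgsh. Of the Ragulator and mTORC1 list, rragd (−0.99), fnip1 (−0.26) and rraga (−0.18) were lower in sgsh embryos (3 of 16). The folliculin partner fnip1 was higher in sgsh brains at 3 months (0.38, 1 of 16) and 18 months (0.49), the latter with flcn (0.27, 2 of 16). Lysosomal membrane genes were lower in 3 of 5 at 24 hpf, scarb2a (−0.28), npc1 (−0.19) and cd63 (−0.11), with lamp1b higher (0.22), and 2 of 5 were higher at 18 months, beside 4.52% of all genes, cd63 (0.53) and scarb2a (0.47). Both scarb2a and cd63 were called at 5 dpf too, scarb2a higher (0.19) and cd63 lower (−0.16). Of the ion channel and exchanger list, OSTM1, the partner of the lysosomal chloride exchanger, was higher in the sgsh brain at 3 months (0.37, 1 of 13). It was higher at 18 months too (0.38), with the two-pore channel tpcn3 (0.59, 2 of 13).

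The assembly and TLDc list had 1 call of 10 genes tested in each of the early genotype comparisons, ccdc115 lower at 24 hpf (−0.37) and oxr1a lower at 5 dpf (−0.12). It had none in the sgsh brains without the transgene. With the transgene, where 8.85% of all genes in sgsh and 6.79% in wild type were called higher, 2 of 10 genes were called in each genotype, all higher: oxr1a, a TLDc protein, by 0.37 in sgsh and 0.30 in wild type, and DMXL1, a RAVE component, by 0.26 and 0.24. Of the ion channels and exchangers, slc9a7 was higher with the transgene in both genotypes (0.30 and 0.21), and slc9a6a (0.49), slc9a6b (0.37) and clcn4 (0.24) in sgsh. That is 4 of 13 in sgsh and 1 of 13 in wild type. At 24 hpf TPCN1 (0.41) was higher and slc9a6a (−0.21), mcoln1a (−0.16) and clcn7 (−0.14) lower, 1 higher and 3 lower of 13, beside 21.7% of all genes called. At 5 dpf slc9a6a (−0.20) was lower, 1 of 13, beside 14.4% of all genes called. Of the transmitter transporters, slc32a1 (0.28) and slc18a3a (0.26) were higher in sgsh embryos (2 of 7), and slc18a3b (0.96) and slc17a6a (0.18) in sgsh heads (2 of 9). In sgsh brains at 18 months slc17a6b (0.26) was higher and slc18b1 lower (−1.18), of 9 tested. With the transgene in sgsh, slc32a1 (0.20) and slc17a6a (0.18) were higher (2 of 8). Of 5 lysosomal membrane genes, scarb2a was lower with the transgene in both genotypes (−0.35 in each) and npc1 lower in wild type (−0.20), with lamp2 (0.23) higher in sgsh. Over all genes, 9.51% were called lower in sgsh and 8.45% in wild type. In the Ragulator list, with 16 genes tested, fnip2 was higher in both genotypes (0.44 and 0.39). In sgsh, slc38a9 (0.80) and rragd (0.58) were also higher and rraga (−0.34) and fnip1 (−0.30) lower. All values of these 2 paragraphs are log2 fold changes called by edgeR.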

How the data were processed

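The authors deposited raw counts per Ensembl gene for 36 libraries, without normalization. The counts of the 5 dpf and 2-month libraries came, per the file headers, from featureCounts 2.0.1 with paired, reverse-stranded counting of alignments with mapping quality 10 or higher. The strand setting of the other 18 libraries is not given in the sources used here. The submitters' processing notes name HISAT2, Bowtie2, RSEM and GRCz11, while the names of the deposited count tables include STAR. Gene names came from the table of the whole series.

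In edgeR 4.0.16 (R 4.3.3), genes were filtered with filterByExpr (minimum count 10, minimum total 15), TMM factors were applied and quasi-likelihood models were fitted, with adjustment over all genes tested. The 2-month and the age comparisons were contrasts in fits of 12 libraries, and the others used 6. The code was tested on simulated data. Alternatives were RLE or library-size scaling, other filters, DESeq2 1.42.0, leaving out the 10 most abundant genes, a replicate block, each library left out, and fits of other library sets. Exon overlaps were taken from the tables' coordinates. The RefSeq tables at hand hold no sequences, so none are shown.

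The members, the 6 pathway lists and the 11 marker lists were chosen with earlier results of these data known. Named were members called by genotype, transgene or interaction (otherwise the 3 smallest p), up to 10 called members per direction by age or stage, the highest gene of each subunit, and called list genes, at most 5 per list and direction. Errors are the SD or SE over the 3 pools of a group.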

Additional observations from a re-analysis of the deposited data

How the results depend on the processing

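The counts of members called were recomputed under each alternative. The comparison of 3-month brain with embryo kept 26 calls throughout, that of 2-month brain with head 25 to 26, the 5 dpf comparison kept 1, and the 2-month genotype comparisons and the genotype by transgene interaction kept 0, also with DESeq2. No result changed direction while called. DESeq2 called 1 member at 24 hpf (main count 5), 6 at 18 months (3) and 1 in the genotype by age interaction (0). One fit of all 12 adult libraries of 3 and 18 months called 11 at 18 months, a fit of 6 libraries alone called 4 for the transgene in sgsh (7), and leaving out the 10 most abundant genes called 1 for age in wild type (3). The cause of these differences was not tested. With each library left out in turn, the counts ranged from 1 to 5 at 24 hpf, 4 to 8 for the transgene in sgsh, 1 to 9 for the transgene in wild type, 0 to 1 at 3 months, 0 to 6 at 18 months, 1 to 4 for age in wild type and 5 to 14 for age in sgsh. The shares of all genes called without a library are not given. These ranges therefore do not tell a change of the members from a change over all genes.

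The replicate numbers are shared across groups. In no fit were all correlations of same-numbered samples over 0.1 (range −0.32 to 0.20 over all fits), so the numbers were not taken to pair the pools. At 5 dpf they were all positive (0.036 to 0.135), and 5 of 6 libraries correlated best with their own number, a hint from the data and not from the design. With a replicate block, 0 members were called at 18 months, and the other comparisons stayed within 1.5 times their counts. Scaling by library size alone moved the median of all genes by 0.10 on the log2 scale in the comparison of the 2-month brain with the 5 dpf head, and by less elsewhere. Summed over all members, TMM-scaled levels were 6376 ± 144 in sgsh and 5708 ± 295 CPM in wild type at 18 months (SD, n = 3), beside 6055 ± 179 and 5577 ± 214 CPM unscaled.

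ATP6V1C2, at 0 to 16 counts a library, was too shallow for a fold change. How reads shared with other genes were assigned was not tested, which concerns atp6v0e1 and paralogue pairs such as atp6v0ca and atp6v0cb. In the libraries whose strand setting is not given, the same question concerns members that share exon bases on the opposite strand. Besides atp6v0e1, these are atp6v1aa (305 bases, with ENSDARG00000094852), atp6v0ca (303, with ENSDARG00000097378), atp6v0a1b (136, with cavin1b) and atp6v0b (7, with ENSDARG00000114919).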
